A study of Mus musculus with 6 samples.

Results

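Cells rich in transcripts of the mitochondrial genome were described in single-cell RNA sequencing of differentiated mouse intestinal epithelial monolayers. For each cell the percentage of unique molecular identifiers (UMIs, each standing for a captured RNA molecule) that came from the 13 genes with symbols starting mt- was taken. Cells at 15% or more, with no upper limit, are called mt-rich here, and cells at 4% to 10% served as the reference, so both were chosen by their mitochondrial percentage alone. Of the 5122 deposited cells, 564 (11.01%) were mt-rich and 2934 were reference cells. By the class in the deposited cell names, the mt-rich cells were 552 of 4462 enterocytes, 12 of 552 goblet cells and none of the cells named tuft. The name refers to RNA of the mitochondrial genome only, since neither mitochondrial mass nor mitochondrial DNA was measured.

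The monolayers came from intestinal organoids of B6 mice that carry a Rosa26-floxed STOP-Cas9 allele and were crossed with cmv-cre, a background that every group shares. The 3 groups received DMSO, 13 h of tunicamycin or 25 h of tunicamycin, both at 0.5 µg/ml, and each has 2 libraries that the series text calls biological replicates. Differentiating monolayers were treated from day 3, with DMSO given first to those due for 13 h, and all were harvested on day 4 and passed through a dead-cell removal kit before 10x Genomics 3' V2 library preparation. A tissue tag names small intestine while the growth text names colonic spheroids, and which of these holds is unresolved. Among mt-rich enterocytes, the enterocyte markers Krt20 and Vil1 were detected in 96.9% and 97.3% of cells, while Fabp1 and Aqp8 had no UMI, against 1 and 0 UMIs in reference enterocytes.

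Mitochondria keep a small circular genome whose protein-coding genes all specify subunits of the respiratory chain and ATP synthase. The remaining subunits, the mitochondrial ribosomal proteins and the import machinery are encoded in the nucleus, translated on cytosolic ribosomes and carried into the organelle. In droplet sequencing the mitochondrial share of a cell's UMIs is commonly used as a quality measure, and it is also known to differ between healthy cell types.

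The genes of the mitochondrial genome lie so close together that some overlap. The stretch shared by mt-Atp8 and mt-Atp6, both subunits of ATP synthase, is shown here because UMIs falling in it cannot be assigned to either gene. It lies at chrM:7927-7969 on the plus strand of GRCm38, in GENCODE vM21 transcripts, and the capitals mark the start codon of mt-Atp6.
mt-Atp8 and mt-Atp6 overlap: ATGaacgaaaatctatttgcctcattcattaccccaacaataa
The overlap spans 43 bases. mt-Nd4l and mt-Nd4 share 7 bases, and mt-Nd5 and mt-Nd6 share 14 bases on opposite strands.

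Mt-rich cells were a smaller part of the enterocytes in both libraries at 25 h than in any other library. Their share of enterocytes was 15.4% (165 of 1073 cells, 95% Clopper-Pearson interval 13.3 to 17.7%) and 12.4% (131 of 1058, 10.5 to 14.5%) in DMSO. After 13 h it was 11.8% (83 of 706, 9.47 to 14.4%) and 13.6% (101 of 742, 11.2 to 16.3%). After 25 h it was 9.30% (40 of 430, 6.73 to 12.5%) and 7.06% (32 of 453, 4.88 to 9.83%). The group means were 13.9% ± 2.12 in DMSO, 12.7% ± 1.31 at 13 h and 8.18% ± 1.58 at 25 h (SD, n = 2 each), so DMSO and 13 h overlapped while 25 h lay apart from both. The intervals cover counting error only, and how many cells were loaded is unknown here.

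The difference from DMSO was -5.70 percentage points at 25 h and -1.196 points at 13 h, and 25 h differed from 13 h by -4.50 points. Exact two-sided permutation tests over libraries gave p = 0.333 at 25 h and p = 0.667 at 13 h against DMSO, and 2 against 2 libraries cannot give less than 0.333. A permutation over all 3 groups gave p = 0.133, with 0.0667 the smallest it allows. As an alternative, edgeR's quasi-likelihood test on the numbers of cells in each class and mitochondrial band gave a log2 ratio of -0.91 for mt-rich enterocytes at 25 h against DMSO (adjusted p = 2.31e-05), -0.77 against 13 h (adjusted p = 9.86e-04) and -0.14 at 13 h against DMSO (adjusted p = 0.604). In the same test at 25 h, enterocytes under 4% rose by 1.23 and those at 10% to 15% fell by 0.63 on the log2 scale, with adjusted p = 6.01e-04 and 2.31e-05. This test scales by the cells of all classes in a library, not by enterocytes alone. Its ratios therefore also carry the enterocytes' part of all cells. That was 1073 of 1205 and 1058 of 1187 in DMSO, and 430 of 541 and 453 of 551 at 25 h. Its bands add up to a whole, so they are not independent of each other. The sign at 13 h rested on 1 library, since without DMSO replicate 1 the difference was 0.30 points.

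The median of all enterocytes was lower at 25 h as well as the number at the upper end. The median mitochondrial percentage of enterocytes was 8.98 and 8.89 for the DMSO pair, 8.87 and 8.66 for the 13 h pair, and 7.52 and 7.49 for the 25 h pair. The highest value of any enterocyte was 51.5%. Enterocytes above 25% were 2.52 and 1.98% of enterocytes with DMSO (27 and 21 cells), 2.83 and 2.16% after 13 h (20 and 16 cells), and 0.930 and 1.32% after 25 h (4 and 6 cells). The threshold cut a continuous range: 136 cells lay at 14% to 15% and 98 at 15% to 16%, with median UMIs outside mt- genes of 13462.5 and 12445.5 and median mt- UMIs of 2261.5 and 2277.5.

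**Figure D1:**
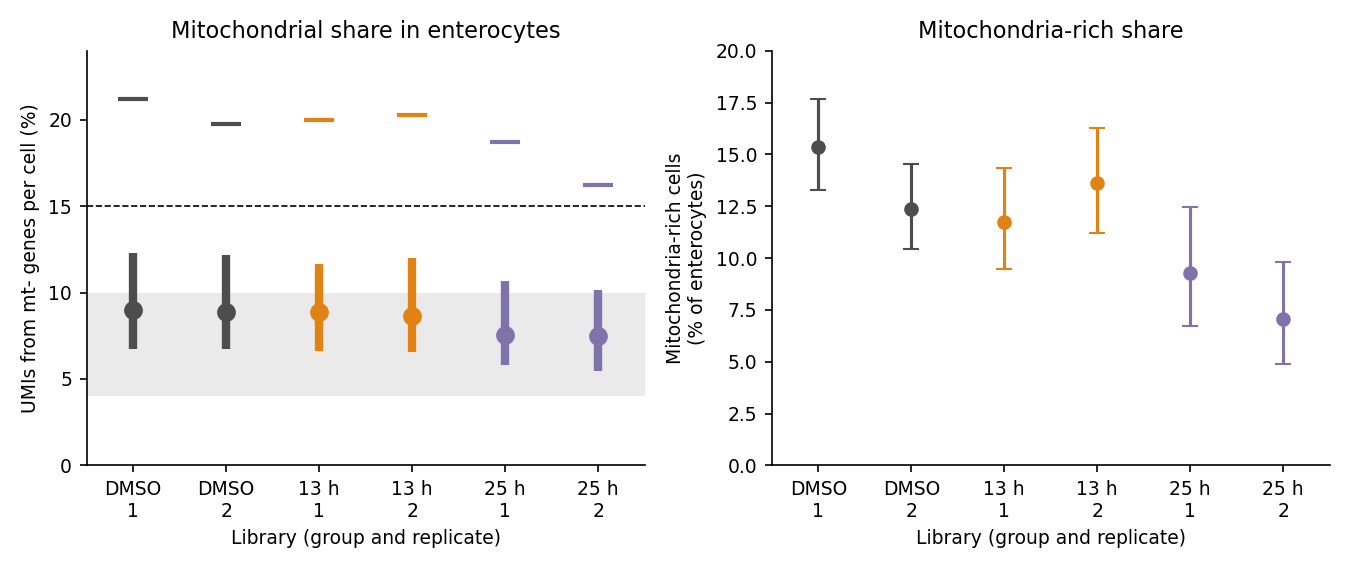
Left, the percentage of UMIs from mt- genes per enterocyte (y axis) in each of the 6 libraries (x axis), with a point at the median, a thick bar from the lower to the upper quartile, a dash at the 95th percentile, shading from 4% to 10% and a dashed line at 15%. Right, the share of enterocytes at 15% or more (y axis, percent) by library, with 95% Clopper-Pearson intervals of the cell counts; both 25 h libraries, at 9.30% and 7.06%, sit under the other 4, which run from 11.8% to 15.4%.

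Goblet cells, the mucus-secreting class, were rarer among mt-rich than among reference cells. Of all goblet cells, 6 and 2 in DMSO, 3 and 1 at 13 h and none at 25 h were mt-rich. Goblet cells made up 3.51, 1.504, 3.49, 0.980, 0 and 0% of the mt-rich cells in DMSO replicates 1 and 2, 13 h replicates 1 and 2 and 25 h replicates 1 and 2. They made up 7.14, 7.16, 4.61, 5.42, 7.41 and 6.33% of the reference cells in the same order. The share was lower in mt-rich cells in 6 of 6 libraries, by 4.76 points on average (-4.76 ± 2.23, SD, n = 6; exact sign-flip test over libraries, two-sided p = 0.03125, the smallest that 6 libraries allow). At a threshold of 20% in place of 15% the difference was -4.75 points (exact sign-flip p = 0.0625). Cells named tuft were 0 of 564. Taking 3 counts over the number of cells as the limit, this allows a share of up to 0.532% in the pooled cells. Within single libraries the limit ran from 1.75% in DMSO replicate 1 to 9.375% in 25 h replicate 2. The pooled value ignores differences between libraries. Cells under 4% are in neither set. There lay 325 of 552 goblet cells (58.9%), 121 of 4462 enterocytes (2.71%) and 50 of 108 cells named tuft (46.3%). Median mitochondrial percentages were 3.51, 8.57 and 4.21 in the same order. Goblet cells as a whole thus lay lower, and the 4.76 points hold for this reference band only.

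The 12 mt-rich goblet cells were too few for a test of genes, and their depth was low, with a median of 3257.5 UMIs outside mt- genes against 11465.5 in reference goblet cells. In the 4 libraries that had any, ribosomal protein genes made up 3.45, 1.73, 6.13 and 0.988% of their UMIs outside mt- genes, against 5.93, 6.26, 10.9 and 10.7% in reference goblet cells. The nuclear-retained RNAs, a list that includes Malat1 and Neat1, made up 12.2, 7.95, 4.53 and 16.1% against 3.13, 3.26, 3.04 and 2.61%. In each of these libraries the ribosomal share was lower and the nuclear RNA share higher in the mt-rich goblet cells. The goblet marker genes summed to 20.9, 23.4, 9.25 and 22.5% against 16.6, 15.4, 9.41 and 9.58%, higher in 3 of the 4.

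Mt-rich enterocytes held more mitochondrial UMIs and fewer others than reference enterocytes. These values describe the selection, because both enter the percentage that chose the cells. Median UMIs outside mt- genes were 8967, 9594, 9482, 10563, 9535 and 8907 in mt-rich enterocytes, in the library order above, and 15180, 14296, 15497.5, 15765.5, 15460 and 16726 in the reference. Median mt- UMIs were 2340, 2298, 2502, 2709, 2365 and 2278 against 1157, 1084, 1149, 1162.5, 1156 and 1207. The ratio of mt-rich to reference medians was 0.615 ± 0.0521 outside mt- genes and 2.10 ± 0.151 for mt- UMIs (mean and SD over 6 libraries), so both ends of the percentage moved in every library. Enterocytes at 10% to 15% differed from the reference almost wholly in their mt- UMIs (ratio 1.75 ± 0.0667) and little in the rest (0.950 ± 0.0366). Above 25% the ratios were 2.53 ± 0.255 and 0.440 ± 0.0496.

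At equal depth an mt-rich enterocyte showed more genes than a reference enterocyte. With each cell thinned to 3000 UMIs outside mt- genes, mt-rich enterocytes had on average 1456, 1465, 1500, 1508, 1477 and 1506 genes, and reference enterocytes 1350, 1359, 1397, 1399, 1397 and 1367. The groups of libraries did not overlap and the difference was 107 ± 18.8 genes, higher in 6 of 6 libraries (exact sign-flip test, two-sided p = 0.03125, the smallest possible). Thinning left out 11 mt-rich enterocytes and no reference enterocyte. Without thinning the medians were 2918 to 3239 and 3368 to 3731, so the order was the opposite at the depth as sequenced.

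**Figure D2:**
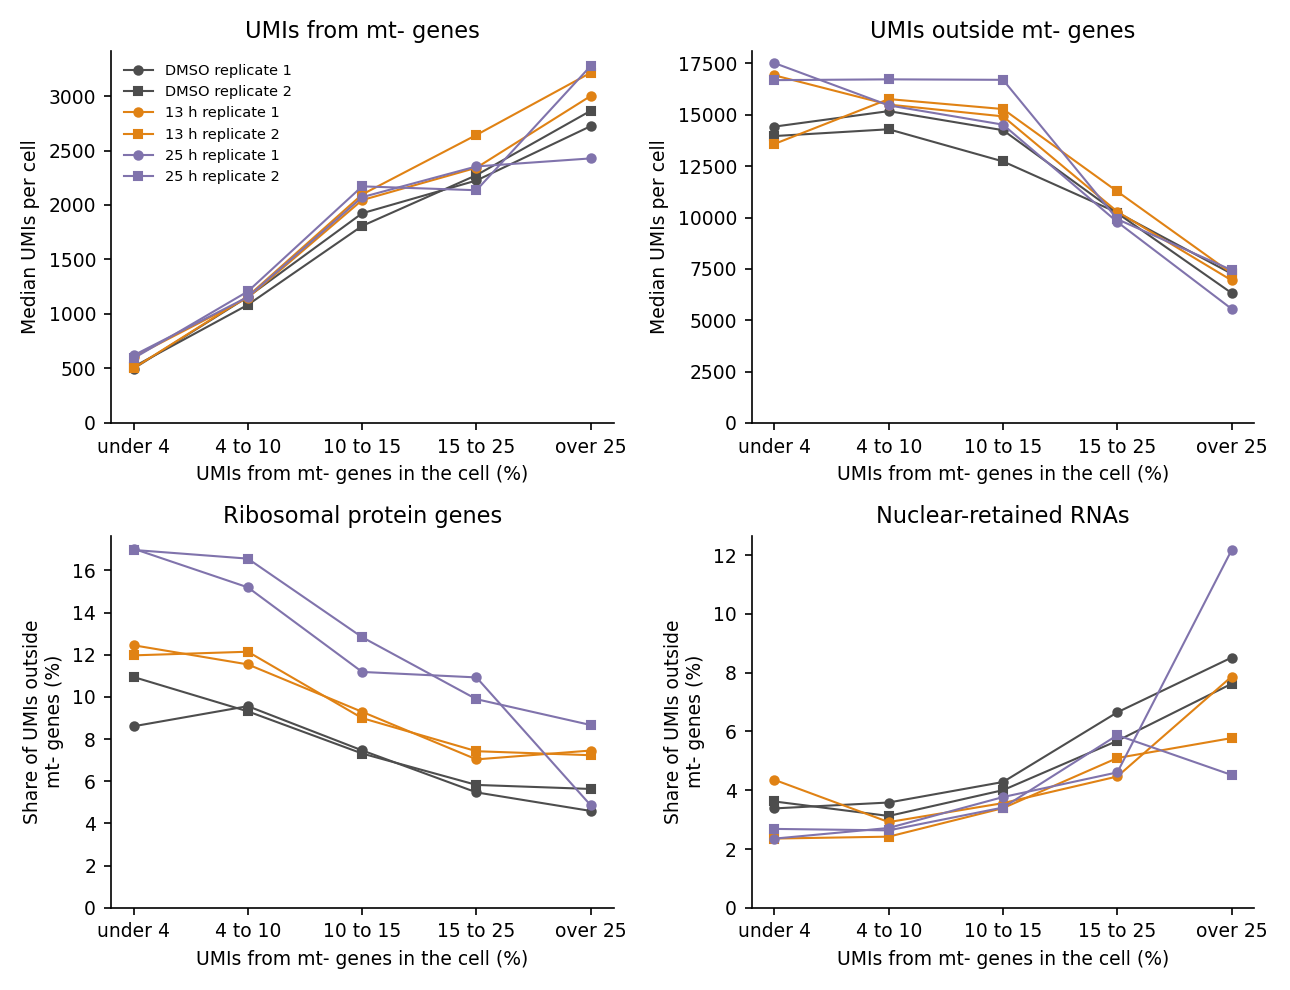
Enterocytes in 5 bands of mitochondrial percentage (x axes), with 1 line per library; the upper panels give the median UMIs per cell from mt- genes and outside them, and the lower panels give ribosomal protein genes and nuclear-retained RNAs as a percentage of UMIs outside mt- genes. Ribosomal proteins averaged 12.4% in the 4% to 10% band and 6.41% above 25%, and nuclear-retained RNAs 2.90% and 7.74%, with 25 h replicate 1 the highest of the latter on 4 cells.

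Within the mitochondrial UMIs the proportions of the 13 genes differed slightly. The rule used the sum of these same UMIs, in which a gene with a large share weighs more, so the proportions are given as a description with no test. mt-Co1, the catalytic subunit of complex IV at chrM:5328-6872, took 35.7, 36.0, 34.7, 35.8, 34.2 and 33.3% of mt- UMIs in mt-rich enterocytes and 34.7, 34.6, 33.3, 32.8, 31.2 and 31.3% in the reference. It was higher in 6 of 6 libraries although the ranges overlapped, with a mean of 34.9% ± 1.05 against 33.0% ± 1.53 (log2 ratio 0.08). Over the 13 genes, 10 had a share that differed in the same direction in all 6 libraries, and against enterocytes at 10% to 15% no gene (0 of 13) did.

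mt-Co1 and mt-Nd5, a complex I subunit (0.402 against 0.374%, log2 ratio 0.10), were the members higher in mt-rich enterocytes of all 6 libraries. mt-Nd6, the complex I subunit encoded on the opposite strand, was lower (log2 ratio -0.99), but it rested on 40 UMIs in mt-rich and 187 in reference enterocytes. mt-Atp8, a small ATP synthase subunit, took 0.0260 against 0.0340% (log2 ratio -0.39). mt-Nd1 took 5.93 against 6.66%, mt-Nd2 1.17 against 1.34% and mt-Co3 18.5 against 19.9%. mt-Nd4l, mt-Nd4 and mt-Cytb, the last a complex III subunit, were also lower, with log2 ratios of -0.23, -0.07 and -0.06. mt-Atp6 (19.7 against 18.9%, higher in 5 of 6), mt-Co2 and mt-Nd3 did not keep 1 direction in every library. At a threshold of 20% mt-Co1 had a log2 ratio of 0.07, and 7 of the 12 genes that gave a value kept 1 direction. Against cells at 10% to 15% mt-Co1 had a log2 ratio of -0.02. The 14 shared bases and any UMIs counted without regard to strand touch the values of mt-Nd6 and mt-Nd5.

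**Figure D3:**
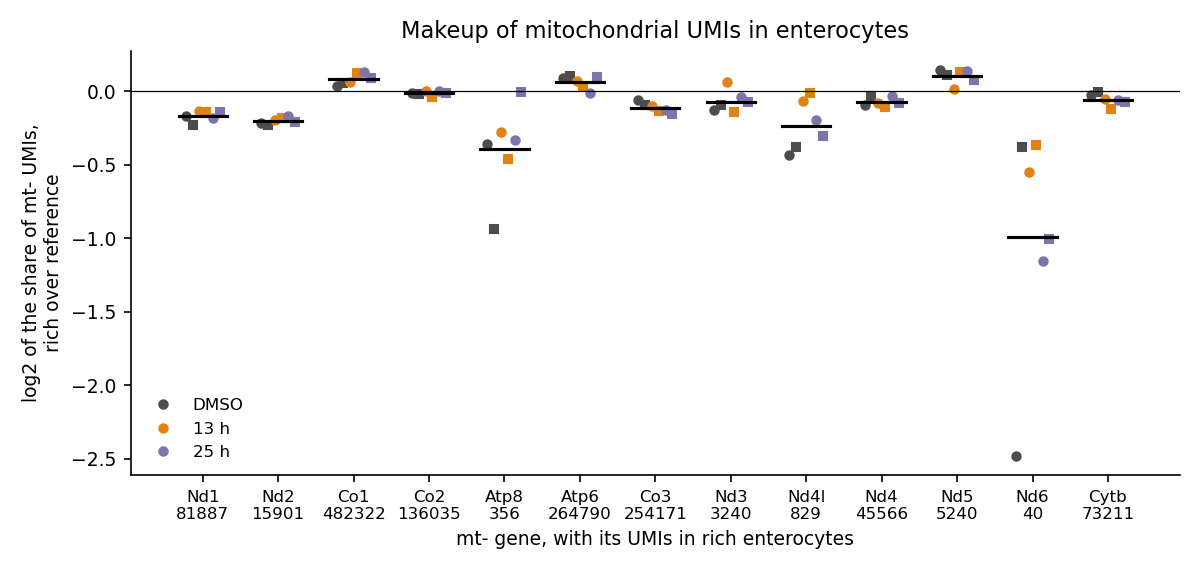
Log2 ratio of each mt- gene's share of all mt- UMIs, mt-rich over reference enterocytes (y axis), for the 13 genes with their UMIs in mt-rich enterocytes (x axis); points are the 6 libraries, coloured by group, with circles for replicate 1 and squares for replicate 2, and black bars are means. mt-Co1 lies at 0.08 and mt-Nd5 at 0.10, while mt-Nd6 has a mean of -0.99 and its libraries spread widely on 40 UMIs.

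Nuclear genes were then compared between mt-rich and reference enterocytes with mt- genes removed from the sums. UMIs were summed per library, and edgeR's quasi-likelihood test with the library as a block was applied to 10298 genes at a Benjamini-Hochberg adjusted p below 0.05. In mt-rich enterocytes 2276 genes (22.1% of those tested) were higher and 2530 (24.6%) lower. Of these, 266 and 210 differed at least 2-fold. All levels are CPM, UMIs of a gene per 1000000 UMIs outside mt- genes, with TMM scaling (a trimmed mean of log ratios), and so are relative to the other nuclear transcripts. With total UMIs as the scale instead, all genes shifted up by 0.26 on the log2 scale, and 4233 genes were higher and 1307 lower, which moved the higher share of all calls from 47.4% to 76.4%. The median log2 ratio over all genes went from 0.04 to 0.30. Counts and medians of lists with total UMIs as the scale stand against these values. Against reference cells matched on depth, 3604 of the 4508 calls that could be tested there stayed past the threshold in the same direction, and 1 reversed. The matched cells remained deeper in every library, for example 10994 against 8967 median UMIs in DMSO replicate 1. Against enterocytes at 10% to 15%, 410 genes were higher and 742 lower. The p-values measure the spread between these 6 libraries.

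Cytosolic ribosomal protein genes were lower as a whole. All 92 of those tested fell, with log2 ratios from -1.58 to -0.35 and a median of -1.01, against a median of 0.04 over all genes tested. The fall was seen in all 6 libraries for 90 of the 92, and with total UMIs as the scale the median was -0.75 and the highest value -0.09, so no member changed direction. Genes with symbols starting Rps6k, which share the prefix but encode kinases of ribosomal protein S6, did not follow: 3 of 7 were higher and none lower. Ribosomal proteins summed to 12.4% ± 2.95 of the UMIs outside mt- genes in reference enterocytes, 9.52% ± 2.15 at 10% to 15% mitochondrial UMIs, 7.77% ± 2.20 at 15% to 25% and 6.41% ± 1.62 above 25% (SD, n = 6). The genes share 1 pattern, so the members are not independent of each other.

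Rpl3, a core protein of the large subunit (chr15:80077791-80091868), had 122, 132, 205, 205, 301 and 302 CPM in mt-rich enterocytes and 419.7, 419, 522, 566, 915 and 920.0 CPM in the reference. Every mt-rich library was lower than every reference library, and in both kinds of cell the 25 h libraries were the highest. The log2 ratio was -1.58 ± 0.06 (SE; edgeR adjusted p = 5.06e-19). Rpl4, another large subunit protein, had 430.2, 427, 479, 569, 893 and 731 CPM against 1099, 1104, 1329, 1469.6, 2234 and 2292 (log2 ratio -1.42), again without overlap. Rps4x of the small subunit and Rpl13 of the large had log2 ratios of -1.27 and -1.22. Gm8730, annotated from a ribosomal protein pseudogene, was also among the lowest genes (-1.53), and its UMIs may be shared with its parent gene.

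The translation machinery beyond the ribosome was lower as well. Of 22 initiation and elongation factors tested, 20 fell and none rose, with a median log2 ratio of -0.66, and -0.40 with total UMIs as the scale. Eef1a1, which delivers aminoacyl-tRNA to the ribosome, fell by 1.02 on the log2 scale. The eIF3 subunits Eif3h, Eif3e and Eif3f fell by 1.14, 1.14 and 1.12.

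Nuclear genes for the mitochondrion did not share the higher level of the mt- genes. Of 91 nuclear-encoded subunits and assembly factors of oxidative phosphorylation, 79 fell and none rose, with a median of -0.46, and -0.20 with total UMIs as the scale. By complex, 39 of 45 fell in complex I, 3 of 4 in complex II, 9 of 12 in complex III, 13 of 13 in complex IV and 15 of 17 in complex V. The medians ran from -0.40 in complex I to -0.53 in complex V, so the nuclear partners of every mt-encoded complex stood lower. Atp5c1, the rotating gamma subunit of ATP synthase (chr2:10056016-10080510), had 509, 583, 429, 434, 439.6 and 348 CPM in mt-rich and 1027, 1055, 801, 778, 865 and 868 CPM in reference enterocytes. The libraries did not overlap, and the log2 ratio was -0.96 ± 0.06 (SE; edgeR adjusted p = 5.12e-15). Cox7a2l, a factor of respiratory supercomplexes, fell by 1.03, Uqcrfs1, the Rieske iron-sulfur protein, by 0.84 and the electron carrier Cycs by 0.79.

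Other nuclear-encoded mitochondrial groups were lower to different degrees. Of 77 mitochondrial ribosomal proteins, 68 fell and none rose (median -0.59), among them Mrps36, Mrpl42 and Mrpl30 at -0.80, -0.75 and -0.74. Of 16 genes for protein import and for fusion or fission, 11 fell, including the outer membrane receptors Tomm20 and Tomm22 at -0.86 and -0.84. The fusion GTPases Mfn2 and Opa1 were the pair that rose in this list, by 0.40 and 0.45. Of 16 mitochondrial chaperones and proteases, 8 fell and 1 rose, with Phb2, a prohibitin scaffold, at -0.93. With total UMIs as the scale, that list had 3 lower and 4 higher and its median went from -0.25 to 0.01, the import and dynamics list had 5 lower and 3 higher, and the mitochondrial ribosomal list 50 lower and 1 higher. All genes together had a median of 0.30 on that scale.

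Of 19 genes that maintain and transcribe mitochondrial DNA, 4 were higher and 4 lower (21.1% each), near the 22.1% and 24.6% of all genes tested. Twnk, the mitochondrial replicative helicase, rose by 0.84 ± 0.24 (SE, log2), on 51 UMIs in mt-rich enterocytes, and Mterf1a, a transcription termination factor, by 0.74. Ssbp1, which binds single-stranded mitochondrial DNA, fell by 0.47. Of 18 genes that process mitochondrial RNA, 4 fell (22.2%, near the 24.6% of all genes) and none rose, among them Hsd17b10, a subunit of mitochondrial RNase P, at -0.90. Slirp, which stabilises mitochondrial mRNA, was at -0.49. The medians of these lists, -0.19 and -0.14, became 0.07 and 0.12 with total UMIs as the scale, where 5 and 2 members were higher and 1 and 2 lower. Both medians were under the 0.30 of all genes on that scale. In the mitophagy list 9 of 14 fell and 1 rose (5 and 2 with total UMIs), with the receptor Bnip3 at -0.95 and the autophagosome protein Gabarap at -0.54.

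Nuclear-retained RNAs stood higher. Neat1, the scaffold RNA of paraspeckles (chr19:5824708-5845478), had 4497, 4019.5, 3157, 3329.6, 2899 and 3022 CPM in mt-rich and 1987, 1903, 1718, 1565, 1540.1 and 1488 CPM in reference enterocytes. Each mt-rich library exceeded each reference library, with a log2 ratio of 1.03 ± 0.05 (SE; edgeR adjusted p = 4.69e-17). Malat1, a nuclear speckle RNA (chr19:5795690-5802672), had 59115, 49675, 42085, 42218, 42264 and 46827 CPM against 37528, 32152, 29339.8, 23895, 27165 and 26995, again without overlap (log2 ratio 0.68 ± 0.05, SE; edgeR adjusted p = 4.30e-13). Of the 6 RNAs of this list that were tested, 3 rose and none fell, the other being Gm42418 at 0.46. With the cell of most UMIs left out of each library, Gm42418 had 491 to 1028 CPM in mt-rich and 389 to 889 CPM in reference libraries, which overlap. Whether Gm42418 is retained in the nucleus was not measured. The summed share of the list was 2.90% ± 0.412 in reference enterocytes and 7.74% ± 2.63 above 25% mitochondrial UMIs. The depth of these cells, given above, moved with the same bands, and its part in the result was not tested beyond the depth-matched values, which were 0.93 for Neat1 and 0.37 for Malat1.

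Among the largest rises of nuclear genes was that of Timp2, an inhibitor of matrix metalloproteinases (chr11:118301069-118355740). It had 215, 243, 144, 147, 91.7 and 136 CPM in mt-rich and 64.9, 60.2, 35.5, 35.8, 51.2 and 51.9 CPM in reference enterocytes. No library overlapped, and the log2 ratio was 1.78 ± 0.10 (SE; edgeR adjusted p = 1.74e-16), with 1104 UMIs spread over 291 mt-rich enterocytes. Against enterocytes at 10% to 15% its log2 ratio was 0.47.

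Clu, the secreted chaperone clusterin (chr14:65968483-65981547), had 480.3, 672, 322, 362, 341 and 288 CPM against 226, 182, 134, 139.9, 111 and 119 (log2 ratio 1.42 ± 0.08, SE; edgeR adjusted p = 1.77e-16). The libraries did not overlap, but in 25 h replicate 1 a single cell gave 41.4% of the 145 UMIs, and without it that library was at 199.8 CPM, under the highest reference library. Atg9b, a membrane protein of autophagosome formation, had 104 to 139 CPM in mt-rich and 36.5 to 53.9 CPM in reference libraries (log2 ratio 1.45). Further members of the 12 largest rises were Myof and Ahnak2 at 1.56 each, Scnn1a, a subunit of the epithelial sodium channel, at 1.44, the unnamed gene 4930539E08Rik at 1.43, the histone gene Hist1h4h at 1.42, Ephx1, an epoxide hydrolase, at 1.40, Greb1 at 1.30 and Psca at 1.29.

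Among the 12 largest falls were the sterol synthesis enzymes Fdps, Nsdhl and Pmvk. Fdps, which makes farnesyl diphosphate (chr3:89093588-89101959), had 122, 137, 211, 178, 129 and 87.0 CPM in mt-rich and 522, 573, 530.4, 527, 419 and 393 CPM in reference enterocytes. The ranges did not overlap and the log2 ratio was -1.79 ± 0.08 (SE; edgeR adjusted p = 5.18e-18). Nsdhl, a later enzyme of cholesterol synthesis, had 25.9 to 41.8 CPM against 63.0 to 132 (log2 ratio -1.60), and Pmvk, a kinase of the mevalonate pathway, had a log2 ratio of -1.52. Tff3, a secreted trefoil peptide of goblet cells, had 1269.8, 929, 305, 607, 179 and 356 CPM against 2178, 2304, 1453, 1908, 1869 and 1172 (log2 ratio -1.69 ± 0.14). It was lower in each library although the highest mt-rich library passed the lowest reference one.

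Fabp6, an ileal bile acid binding protein, had the lowest log2 ratio, -2.05 ± 0.23 (SE), but its 61 UMIs came from 11 mt-rich enterocytes and 54.1% of them from a single cell. The other members of the 12 largest falls were Rpl3 and Gm8730, given above, Csrp2 at -1.74, the glutathione transferase Gsta1 at -1.65, Plp2 at -1.61, H2-Q10 at -1.55 and Prelid2 at -1.50. H2-Q10 belongs to a family of near-identical class I genes, so its UMIs may be divided among them.

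**Figure D4:**
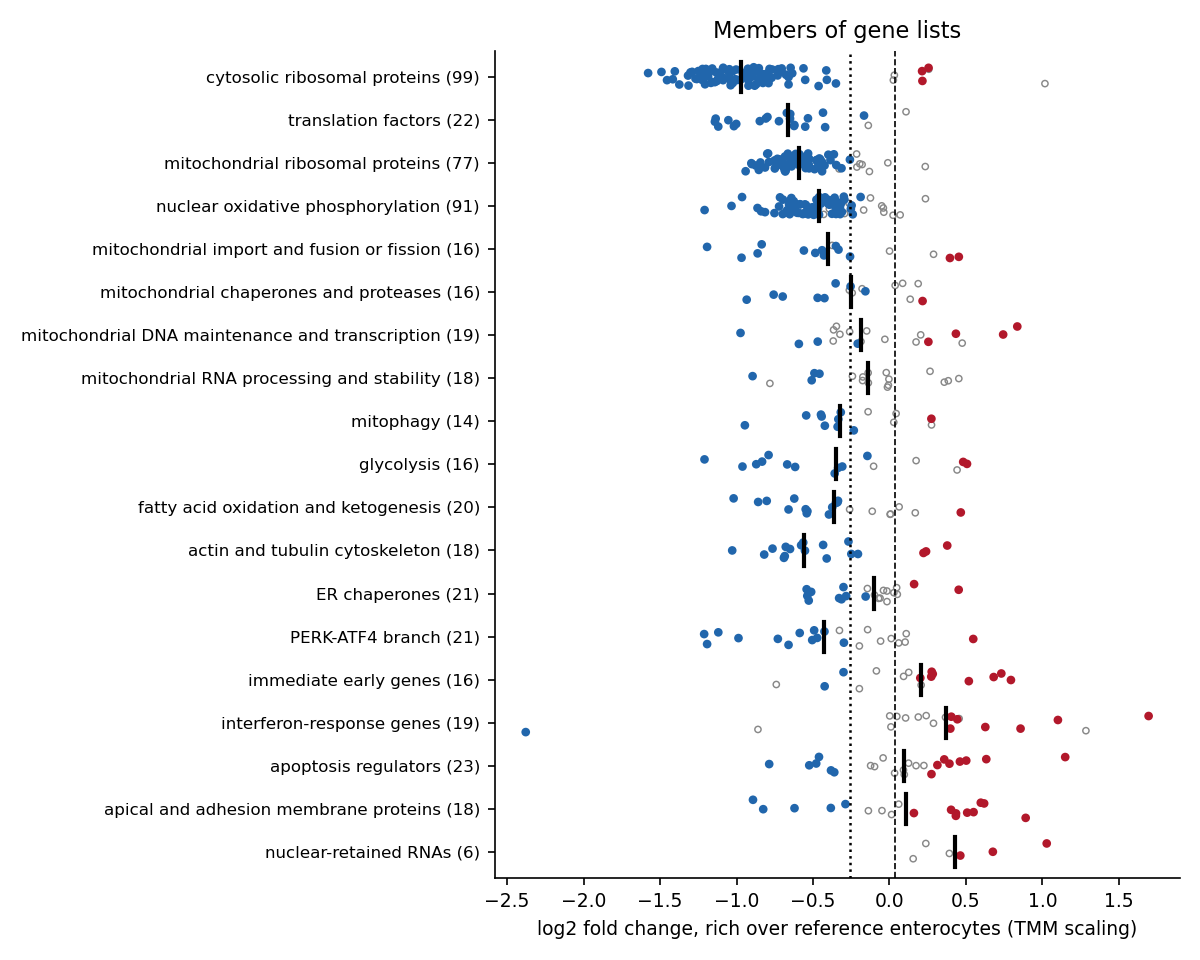
Log2 ratio of mt-rich over reference enterocytes (x axis) for each tested member of the gene lists (y axis); red and blue points passed the threshold as higher and lower, grey ones did not, black bars are list medians, the dashed line is the median of all genes tested (0.04) and the dotted line shows where 0 lies with total UMIs as the scale. All 92 ribosomal proteins lie at or below -0.35 and the 7 other points in their row are Rps6k genes. Neat1, Malat1 and Gm42418 are the called members of the nuclear-retained RNA list, all higher.

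Among stress genes the lists divided. The chaperone Hspa5 (BiP) had a log2 ratio of -0.02 and Ddit3 (CHOP) of 0.10 between mt-rich and reference enterocytes, with edgeR adjusted p = 0.897 and 0.294. Of 21 ER chaperones and folding enzymes, 9 fell and 2 rose, with Manf, Ppib, Sdf2l1 and Erp29 between -0.54 and -0.51. The median of -0.10 became 0.16 with total UMIs as the scale (4 lower and 9 higher), against 0.30 over all genes on that scale. The summed level was higher, with a ratio of 1.13, so the list has no direction that holds on every measure. In the list of the PERK-ATF4 branch 12 of 21 fell and 1 rose (11 and 5 with total UMIs). Among the lower members were Mthfd2, a mitochondrial folate enzyme, at -1.12, Asns, asparagine synthetase, at -0.99, Slc3a2, an amino acid transporter subunit, at -0.47 and the transcription factor Atf4 itself at -0.43. The summed level of the list did not follow in every group: in CPM without TMM it was 611 and 664 in mt-rich against 771 and 845 in reference enterocytes of DMSO, but 5528 and 5092 against 4545 and 4654 at 13 h and 4153 and 3703 against 3746 and 3623 at 25 h. It was thus lower in both DMSO libraries and higher in all 4 treated ones, with a mean ratio of 1.003.

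Of 16 immediate early genes, 8 rose and 2 fell, with a median of 0.20. Dusp1, a MAP kinase phosphatase, rose by 0.73 and Fosl2, an AP-1 subunit, by 0.68, while Jund fell by 0.42. Of 12 cytosolic heat shock genes, 2 rose and 3 fell (16.7% and 25.0%, near the shares over all genes), and with total UMIs as the scale 6 were higher and 2 lower. On that scale 4233 of all 10298 genes were higher and 1307 lower. The inducible Hspa1b rose by 1.27 ± 0.15 (SE, log2) and the constitutive Hspa8 and Hsp90ab1 fell by 0.73 and 0.48. With the cell of most UMIs left out of each library, Hspa1b had 2.35 to 34.6 CPM in mt-rich and 4.13 to 17.6 CPM in reference libraries. The lowest was 25 h replicate 1, under every reference library.

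Of 23 apoptosis regulators, 8 rose and 6 fell (34.8% and 26.1%, against 22.1% and 24.6% over all genes), and with total UMIs as the scale 11 were higher and 3 lower. Apaf1, which forms the apoptosome, rose by 0.63 and the protective Mcl1 by 0.31, whereas the pro-apoptotic Bad, Bak1 and Bax fell by 0.48, 0.46 and 0.36. Of 15 p53 target genes, 3 rose and 3 fell (20% each, no more than over all genes), and with total UMIs 7 were higher and 1 lower. On that scale 4233 of all 10298 genes were higher and 1307 lower. The higher counts of the apoptosis and p53 lists there were near that share. Plk2 was at 1.19 and Perp at -0.46. Of 19 interferon-response genes, 7 rose and 1 fell, with a median of 0.37. Stat2 was at 0.63 and Oasl1 at 0.40, while Rsad2, the highest at 1.69, took 92.3% of its UMIs in 25 h replicate 2 from 1 cell. Ifi27l2a, the member that fell, had 11 UMIs in mt-rich enterocytes.

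Of 16 glycolysis genes, 11 fell and 2 rose, and with total UMIs as the scale 7 were lower and 3 higher. Gapdh had 2196, 2274, 2239, 2084, 2306 and 2098 CPM in mt-rich and 3943, 3954, 3814, 3803, 4057 and 3938 CPM in reference enterocytes, which did not overlap and varied little with treatment (log2 ratio -0.83 ± 0.05, SE; edgeR adjusted p = 1.80e-15). Pgk1 and Eno1 were at -0.96 and -0.87. Of 20 genes of fatty acid oxidation and ketogenesis, 13 fell and 1 rose, with a median of -0.36. With total UMIs as the scale 8 were lower and 5 higher with a median of -0.10, against 0.30 over all genes. On that scale the mean ratio of the summed level was 1.005, from 0.95 to 1.06 over the libraries. Decr1, Eci1 and Hadh of the mitochondrial pathway were at -1.02, -0.80 and -0.62.

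Genes of the cytoskeleton and cell surface moved both ways. Of 18 actin and tubulin genes, 15 fell and 3 rose, with the actin regulators Cfl1, Pfn1 and Tmsb10 at -0.82, -0.68 and -0.69. Of 23 brush border genes, 10 fell and 4 rose. Actg1, the microvillus bundling protein Espn and the digestive enzyme Sis were at -0.91, -1.03 and -0.71. Of 18 apical and adhesion genes, 9 rose and 5 fell: the claudin Cldn4 was at 0.89 and E-cadherin Cdh1 at 0.60, whereas the galectins Lgals4 and Lgals3 were at -0.89 and -0.83. Over all genes tested, 22.1% were higher and 24.6% lower. The rises in the brush border list and the falls in the apical list were near these shares. With total UMIs as the scale the brush border list had 7 lower and 12 higher and its median of -0.11 became 0.15, while the actin and tubulin list had 12 lower and 3 higher. The median over all genes was 0.30 on that scale, with 4233 of 10298 genes higher and 1307 lower.

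Absorptive genes moved both ways. Guca2a, the precursor of the gut peptide guanylin, had 3577, 3742, 2535, 2622, 3150.2 and 2677 CPM in mt-rich and 2219, 1951, 1509, 1370.3, 1811 and 1647 CPM in reference enterocytes, without overlap (log2 ratio 0.80). Apob, the scaffold of chylomicrons, had 1248, 1253, 887, 849.9, 820.5 and 807 CPM against 733, 698, 557, 499.6, 434 and 422 (log2 ratio 0.81; edgeR adjusted p = 3.17e-14), also without overlap. With the cell of most UMIs left out of each library, the lowest mt-rich value was 1995 CPM for Guca2a and 710.0 CPM for Apob, each just under the highest reference library. Other genes of lipid handling fell, Mogat2 by 1.30 and Apoa4 by 0.96, and the list of 16 had 3 higher and 5 lower (18.8% and 31.2%, against 22.1% and 24.6% over all genes). Of 15 enterocyte markers 2 rose and 7 fell, and with total UMIs as the scale 6 were higher and 5 lower and the median of -0.17 became 0.09. The same scale turned the lipid-handling median from -0.17 to 0.09. Both medians stayed under the 0.30 of all genes on that scale, where 4233 of 10298 genes were higher and 1307 lower. The metal-binding Mt2 and Mt1 were at -1.21 and -0.64 and the transporter Slc30a10 at 0.73.

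For some lists the summed level, in CPM without TMM, went the other way from the median of the TMM-scaled log2 ratios. Mt-rich over reference enterocytes, its ratio was 1.31 for lipid handling, 1.204 for enterocyte markers and 1.11 for mitochondrial DNA maintenance. Each of these lists had a TMM-scaled median under 0. With total UMIs as the scale their medians, given above, were above 0, so the opposition came with the change of scale. Metal-binding and zinc genes had a mean ratio of 1.13, also with a TMM-scaled median under 0. That ratio ran from 0.67 to 1.73 and was under 1 in 3 of 6 libraries, so the sum had no common direction. The ratio was 0.873 for the apical and adhesion genes and 0.964 for apoptosis regulators, with TMM-scaled medians above 0. For ribosomal proteins, oxidative phosphorylation, glycolysis and translation factors both measures were lower, with ratios of 0.616, 0.854, 0.780 and 0.728. Of 25 histone genes, 6 rose (24.0%, near the 22.1% of all genes) and 10 fell, but with total UMIs as the scale 10 were higher and 4 lower and the median went from -0.13 to 0.13. All genes on that scale had a median of 0.30, with 4233 of 10298 higher and 1307 lower.

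Summed markers of tuft cells, leukocytes and fibroblasts were under 30 CPM in mt-rich enterocytes, while goblet markers were abundant in both kinds of enterocyte. The 13 goblet markers summed to 2948 to 6166 CPM in mt-rich and 2269 to 4019 CPM in reference libraries. In mt-rich enterocytes the largest part came from Fcgbp, a mucus protein gene with 21396 UMIs there against 4665 for Tff3, and in the reference Tff3 had 77651 UMIs and Fcgbp 68318. Fcgbp was seen in 99.5% of mt-rich and 98.9% of reference enterocytes, with 4269.9, 4192, 2749.9, 3053, 2445 and 2772 CPM against 1947, 1827, 1620.0, 1582, 1435 and 1207 (log2 ratio 1.00), without overlap. Of the 9 goblet markers tested, 5 fell, among them Tff3, given above, Agr2 at -1.54, Zg16 at -0.97 and Muc2 at -0.54 (edgeR adjusted p = 0.0466), and against depth-matched cells Zg16 and Muc2 had log2 ratios of 0.12 and 0.88. Tuft markers summed to 2.57 to 9.86 CPM against 1.23 to 2.22, with 5 of the 10 at 0 UMIs in mt-rich enterocytes, Dclk1 and Trpm5 among them. Leukocyte markers summed to 3.06 to 27.9 CPM against 0.962 to 4.46, with 6 of 9 at 0, including Ptprc, and 68 of their UMIs from Csf1r. Fibroblast markers summed to 0 to 2.57 CPM against 0.101 to 1.23, with 7 of 9 at 0. Of the stem and dividing cell markers 2 rose and 1 fell of 7 tested, of the enteroendocrine markers 1 rose and 1 fell of 2, and of the Paneth markers 1 of 2 fell. These lists are too small to set apart from the 22.1% higher and 24.6% lower over all genes. The summed marker levels are on the same scale as the ratios of summed levels above. The part of these markers and of depth in the other results was not tested. Doublet calls were 1 among mt-rich and 20 among reference cells of 31 in all, and 3 mt-rich cells carried a barcode also found in another library.

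Tunicamycin, which blocks the start of N-linked glycosylation and so burdens protein folding in the endoplasmic reticulum (ER), changed mt-rich enterocytes too. In a fit of the mt-rich sums alone, over 7905 genes, 663 (8.39%) were higher and 647 (8.18%) lower at 13 h than in DMSO. At 25 h 532 (6.73%) were higher and 444 (5.62%) lower. Reference enterocytes, fitted separately over 10550 genes, had 2151 (20.4%) higher and 2376 (22.5%) lower at 13 h, and 2344 (22.2%) higher and 2446 (23.2%) lower at 25 h. The mt-rich sums rest on 32 to 165 cells per library and the reference sums on more cells, so these counts are not on equal depth. Both times share the DMSO libraries. Leaving out DMSO replicate 1 gave 425 and 353 genes at 13 h, and leaving out 13 h replicate 2 gave 407 and 299. Without 13 h replicate 1, 423 were lower.

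The ER folding genes rose in mt-rich enterocytes. Of 21 ER chaperones and folding enzymes tested, 20 rose at each time and none fell, with median log2 changes of 2.22 at 13 h and 2.38 at 25 h, against 0.01 and 0.02 over all genes tested. Hspa5, the main ER chaperone (chr2:34771970-34777547), had 166, 155, 6289, 6214, 4431 and 3794 CPM in mt-rich and 202, 295, 5922, 5614, 3266 and 3571 CPM in reference enterocytes. All 4 treated libraries were far above both DMSO libraries in each kind of cell. The change in mt-rich enterocytes was 5.28 ± 0.12 at 13 h and 4.72 ± 0.12 at 25 h (log2, SE; edgeR adjusted p = 2.78e-26 and 8.44e-25), and in the reference 4.52 and 3.76. Manf, a secreted ER stress protein, had 94.3, 73.3, 1416, 1448, 1044 and 1022 CPM in mt-rich enterocytes, with changes of 4.09 and 3.66. Pdia6, a disulfide isomerase, changed by 4.93 and 4.73, and Creld2 by 4.91 and 4.30. Derl3, of ER-associated degradation, had no UMI in either DMSO library and 48.3, 62.8, 35.3 and 29.9 CPM in the treated ones.

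The PERK-ATF4 branch rose with them. Of 20 genes tested, 20 rose at 13 h and 17 at 25 h, none fell, and the medians were 3.12 and 2.68. Ddit3, the stress transcription factor CHOP, had 72.2, 74.8, 2109, 1622, 914 and 774 CPM in mt-rich and 78.5, 106, 1449, 1362, 849.6 and 843 CPM in reference enterocytes. The 13 h libraries were the highest and the DMSO libraries the lowest. Its change in mt-rich enterocytes was 4.67 at 13 h and 3.57 at 25 h. Nupr1, a stress-induced chromatin protein, had 36.4, 51.1, 849.7, 954, 818 and 842 CPM in mt-rich and 79.3, 75.2, 718, 843, 729 and 704 CPM in reference enterocytes, with changes of 4.39 and 4.31. Atf5, a factor linked to mitochondrial stress, changed by 4.40 and 4.99.

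Ribosomal protein genes rose with treatment in mt-rich enterocytes. The ribosomal symbol list, which holds the Rps6k genes as well, had 50 of 95 higher and 2 lower at 13 h, and 72 higher and 1 lower at 25 h, with medians of 0.32 and 0.82. In reference enterocytes the same list had 61 and 70 of 98 higher, with medians of 0.24 and 0.67. Nuclear oxidative phosphorylation genes had 29 of 88 lower and 1 higher at 13 h, and 31 lower and 2 higher at 25 h, with medians of -0.22 and -0.31. In reference enterocytes 66 and 68 of 91 were lower and 7 and 6 higher, with medians of -0.28 and -0.31. Of 14 interferon-response genes, 7 fell at each time in mt-rich enterocytes and none rose, against 8.18% and 5.62% lower over all genes. Their summed level fell in reference enterocytes too, in CPM without TMM. It went from 761 and 812 in DMSO to 370 and 337 at 13 h and 355 and 332 at 25 h.

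Absorptive genes fell in mt-rich enterocytes after tunicamycin. Fabp2, the intestinal fatty acid binding protein, had 712, 646, 172, 149, 197 and 188 CPM, with changes of -2.08 and -1.77. S100g, a calcium-binding protein, had 1056, 982, 1047, 1069.9, 32.9 and 103 CPM: it did not pass at 13 h and fell by 3.90 at 25 h. Saa1 and Apoa1 fell by 2.63 and 2.58 at 25 h, and Zg16 and Tff3, goblet-type genes, fell by 2.73 and 2.02. Of 14 lipid-handling genes, 9 fell at 13 h and 6 at 25 h, and of 15 enterocyte markers, 8 and 7 fell, with none higher in either list. Reference enterocytes fell too in both lists, by summed level in CPM without TMM. Lipid handling went from 3672 and 3453 in DMSO to 1985 and 1889 at 13 h and 1370 and 1388 at 25 h. Enterocyte markers went from 13449 and 12636.5 to 10023 and 9517 and then 8310 and 7614. Hsd17b13, a lipid droplet enzyme, rose in mt-rich enterocytes, with 1.19, 4.31, 38.7, 29.8, 188 and 141 CPM and changes of 3.64 and 5.97.

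From 13 h to 25 h fewer genes passed: 122 (1.54%) were higher and 73 (0.923%) lower in mt-rich enterocytes. The clock genes Dbp and Per3 rose by 1.56 and 1.35. Ddit3 and Hspa5 fell by 1.10 and 0.56, and Nts, the precursor of neurotensin, fell by 3.13. Leaving out 13 h replicate 2 gave 56 and 40 genes, without 25 h replicate 1 71 were higher and without 13 h replicate 1 44 were lower.

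**Figure D5:**
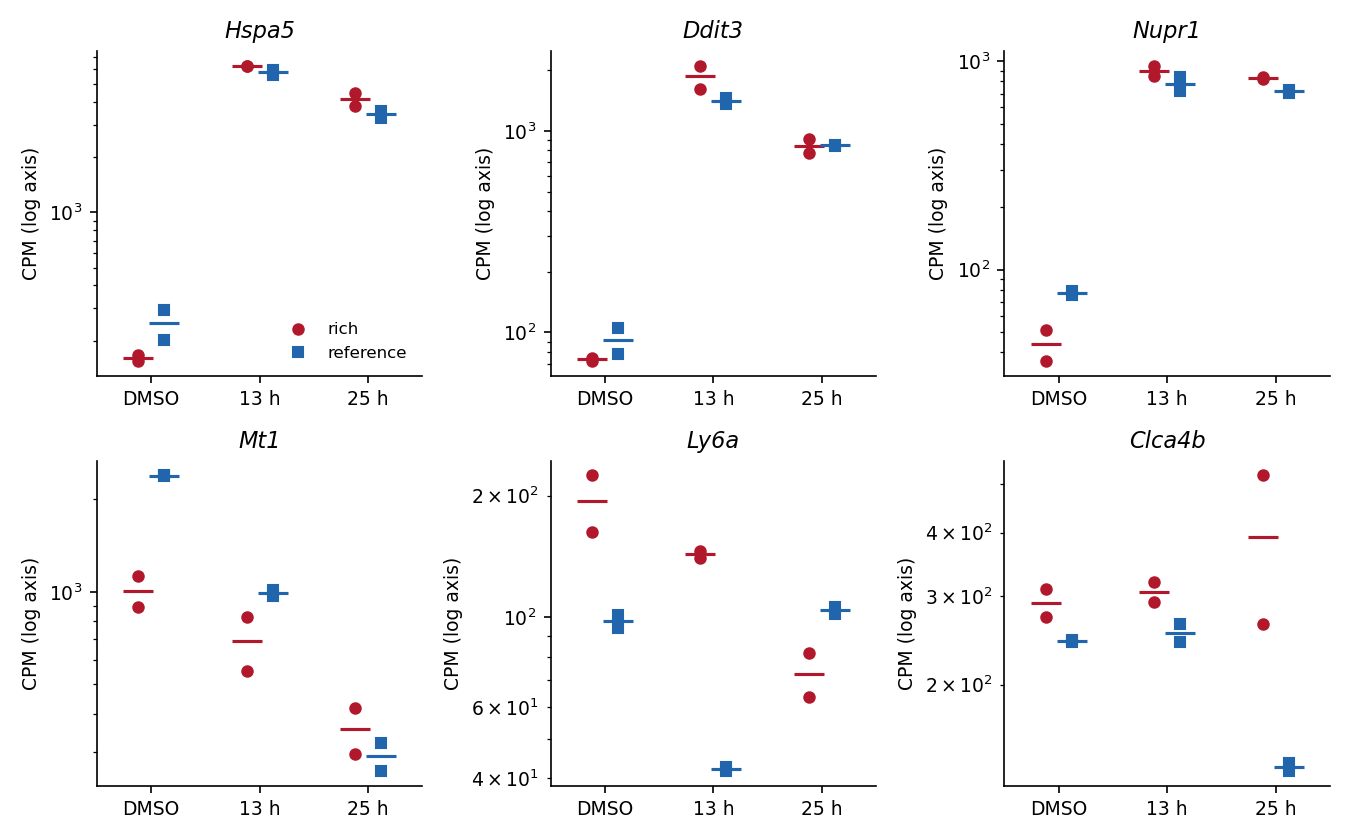
TMM-scaled CPM on a log axis (y) of 6 genes in mt-rich (red circles) and reference (blue squares) enterocytes of the DMSO, 13 h and 25 h groups (x axis), with 1 point per library and bars at group means. Hspa5, Ddit3 and Nupr1 are higher in all 4 treated libraries than in DMSO in both kinds of cell, and the Mt1, Ly6a and Clca4b panels show genes whose gap between the kinds of cell differs between groups.

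The response itself was tested for a difference between mt-rich and reference enterocytes through an interaction term over 10298 genes. Few genes passed: 39 (0.379%) responded more positively and 4 (0.0388%) more negatively at 13 h, 26 (0.252%) and 8 (0.0777%) at 25 h, and 11 (0.107%) and 9 (0.0874%) between 25 h and 13 h. Hspa5 was among them, with an excess change in mt-rich enterocytes of 0.71 at 13 h (edgeR adjusted p = 0.00803) and 0.86 at 25 h (adjusted p = 4.39e-04). Its DMSO level was lower in mt-rich than in reference enterocytes and its treated level higher in all 4 libraries. Ddit3 had 0.70 at 13 h (adjusted p = 0.0125) and 0.31 at 25 h (adjusted p = 0.687). Nupr1 had 1.05 at each time (adjusted p = 1.35e-04 and 2.13e-04). At 13 h the counts were 2 and 1 genes with DESeq2, and 9 and 1 against depth-matched reference cells.

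Other genes with a different response included Mt1, Ly6a and Ccl20. Mt1, a metallothionein, had 889.7, 1129.6, 553, 829, 418 and 296 CPM in mt-rich and 2392, 2396, 967, 1017, 261 and 322 CPM in reference enterocytes, with a smaller gap at 25 h than in DMSO (interaction 0.72 at 13 h and 1.57 at 25 h; edgeR adjusted p = 0.00527 and 1.93e-07). In 25 h replicate 1 a single mt-rich cell gave 66.9% of the Mt1 UMIs, and without it that library was at 139 CPM, under both reference libraries at 25 h. Ly6a, a surface protein also called Sca-1, had 224, 163, 146, 140.2, 63.5 and 81.5 CPM in mt-rich and 93.9, 102, 41.7, 42.7, 102 and 106 CPM in reference enterocytes. It was higher in mt-rich cells of the 4 DMSO and 13 h libraries and lower in both at 25 h (interaction -1.52 at 25 h against DMSO; adjusted p = 3.71e-05). Ccl20, an epithelial chemokine, had 237, 227, 674, 659.8, 567 and 391 CPM against 127, 151, 790.2, 794, 477 and 518, with interactions of -0.999 and -0.795.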

How the data were processed

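Values in the matrix the authors deposited are UMI counts per gene and cell, not normalized. Per the submitters' processing notes, Cell Ranger and mm10 were used. Its version, the cell filter and the method behind the classes are not stated in these sources. Library and class were read from the deposited cell names, and 12 barcodes found in more than 1 library were kept apart. Symbols, coordinates and sequence came from GENCODE vM21 (GRCm38), which gave symbols for 27722 of 27998 genes. Whether UMIs were counted by strand is not given. No cell was removed: Scrublet in scanpy 1.11.5 called 31 doublets, which an alternative left out. Cells held 3090 to 157040 UMIs and libraries 9462248 to 19772274.

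Counts without mt- genes were summed per library over mt-rich and reference enterocytes. Genes passing filterByExpr were fitted with edgeR 4.0.16 (R 4.3.3), TMM scaling and Benjamini-Hochberg adjustment at 0.05, with library as a block for mt-rich against reference and group alone within each kind of cell. CPM values come from a joint scaling of the 12 sums. Changes between groups come from separate fits. Alternatives were DESeq2 1.42.0, other scalings, other bands, depth-matched cells and each library left out. Leaving out the cell with most UMIs of a gene, at an unchanged library scale, was added after seeing the data. Shares over libraries used exact tests in scipy 1.17.1. On simulated data the mt-rich against reference fit recovered 100% of genes changed by 1 and 89% of those changed by 0.5 on the log2 scale (9801 genes), and the 25 h against DMSO fit in mt-rich enterocytes 58% and 15% (7887 genes). The changed genes averaged at least 20 CPM, and all genes had 1 spread and no library effects. Of the 10298 genes tested 5483 reach that level, and the rates do not cover the rest.

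The members and the 33 gene lists were chosen with earlier results of these data known. The text names the 12 largest changes each way among genes averaging at least 20 CPM that moved the same way in all 6 libraries, up to 4 members of a list, and the 6 (between groups) or 4 (interaction) largest, each past the threshold. Genes outside this rule were named after their values were seen, and some genes the rule takes are not reported here. No goblet fit was made, since no library had 10 mt-rich goblet cells.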

Additional observations from a re-analysis of the deposited data

Results flagged for a closer look

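The genes here passed the interaction test for a different tunicamycin response in mt-rich and reference enterocytes and had the largest differences by the naming rule. Values are log2 differences of the mt-rich minus reference contrast between groups. Of these 24 differences none stayed past the threshold under every alternative: 21 of 24 passed with DESeq2 size factors, 11 at a threshold of 20%, 4 against depth-matched reference cells, 5 of the 20 tested with DESeq2, and 15 to 22 with a library left out.

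At 13 h against DMSO the values were 3.77 for Nts, 3.06 for Ada, 2.20 for Cyp26b1 and 2.13 for Serpinb9b, and -2.498 for Sprr1a, -0.999 for Ccl20, -0.87 for Tff3 and -0.52 for Hpgd. Nts, the precursor of the peptide neurotensin, had 34.0, 70.5, 53.7, 184, 21.2 and 5.43 CPM in mt-rich and 77.3, 219.6, 16.5, 31.9, 4.13 and 12.1 CPM in reference enterocytes, in the order DMSO, 13 h and 25 h. It was lower than the reference in both DMSO libraries and higher in both at 13 h. Cyp26b1, which degrades retinoic acid, had 3.58, 3.60, 23.6, 20.9, 14.1 and 2.72 CPM in mt-rich enterocytes and 3.85 to 8.65 CPM in the reference. Ada, adenosine deaminase, took 76.9% of its mt-rich UMIs in 13 h replicate 2 from 1 cell.

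At 25 h against DMSO they were 4.02 for Slc6a19, 2.48 for Egr1, 2.48 for Hsd17b13 and 2.47 for Mt2, and -12.31 for Reg3b, -2.51 for Reg3g, -1.52 for Ly6a and -1.47 for Tff3. Reg3b, an antimicrobial lectin, had no UMI in mt-rich enterocytes at 25 h against 10.3 and 82.9 CPM in the reference, so its value depends on the prior count of the fit and is no measure of size. Slc6a19, an amino acid transporter, had 8 UMIs in mt-rich enterocytes of 25 h replicate 2, all in 1 cell, and Reg3g 11 in replicate 1, all in 1 cell. Hsd17b13 had 1.19 and 4.31 CPM in mt-rich against 21.2 and 23.3 CPM in reference enterocytes of DMSO, and 188 and 141 against 239 and 260.4 CPM at 25 h, so it was lower in mt-rich cells throughout.

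Between 25 h and 13 h they were 4.17 for Sprr1a, 1.24 for Clca4b, 1.14 for Rbp2 and 0.97 for Guca2b, and -11.91 for Reg3b, -2.40 for Ly6c1, -2.29 for Ly6a and -1.84 for Ccl6. Clca4b, of the calcium-activated chloride channel regulator family, had 309, 273, 292, 319, 519.5 and 264 CPM in mt-rich enterocytes and 246, 243, 264, 243, 135 and 139.8 CPM in the reference. In the reference both 25 h libraries were the lowest, while in mt-rich enterocytes they were the highest and the lowest. In 25 h replicate 2 a single mt-rich cell gave 100% of the UMIs of Sprr1a, a cornified envelope protein.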

How the results depend on the processing

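The alternatives mainly moved counts of genes. Beside the 2276 higher and 2530 lower genes in mt-rich against reference enterocytes, a threshold of 20% gave 1455 higher, a reference of 10% to 15% gave 410 and 742, and total UMIs without TMM gave 4233 and 1307; leaving out each library gave 1846 to 2113 and 2314 to 2517. Within mt-rich enterocytes at 13 h against DMSO, beside 663 and 647, DESeq2 gave 276 and 167, a threshold of 20% 259 and 143, and leaving out each library 407 to 769 and 299 to 788. At 25 h, beside 532 and 444, these were 331 and 220, 225 and 112, and 378 to 511 and 327 to 460. Between 25 h and 13 h, beside 122 and 73, DESeq2 gave 40 lower, no filter 122 lower, a threshold of 20% 3 and 8, and leaving out each library 56 to 122 and 40 to 82. For the interaction at 13 h, beside 39 and 4, a threshold of 20% gave 18 higher, depth-matched cells 9 and 1, DESeq2 2 and 1, and leaving out each library 10 to 55 and 2 to 14. At 25 h, beside 26 and 8, DESeq2 size factors gave 5 lower, a threshold of 20% 13 and 4, depth-matched cells 4 and 1, DESeq2 15 and 2, and leaving out each library 10 to 33 and 3 to 16. Between 25 h and 13 h, beside 11 and 9, these were 4 and 3, 2 and 4, 3 and 1, and 6 to 11 and 7 to 13. The causes were not tested; a higher threshold or a library left out leaves fewer cells.

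The share of mt-rich enterocytes with each library left out ran from -2.69 to 0.30 points at 13 h against DMSO, -7.19 to -4.20 at 25 h against DMSO and -5.62 to -3.38 between 25 h and 13 h. Over all cells it ran from -2.73 to 0.26, -7.59 to -4.60 and -5.65 to -4.07. The edgeR test on cell numbers was scaled by the cells of all classes. At 25 h against DMSO and 13 h it gave log2 ratios of -0.91 and -0.77 for mt-rich enterocytes. For all mt-rich cells these were -0.95 and -0.80. The goblet difference was -4.75 points (p = 0.0625) at a threshold of 20% and -5.49 to -4.23 with each library left out, and genes per cell differed by 101 to 113, with p = 0.0625, the smallest that 5 libraries allow in an exact sign-flip test. The makeup values come from the mt- UMIs that chose the cells and are a description with no test. At a threshold of 20%, 7 of 12 mt- genes kept 1 direction in every library, and mt-Nd6 gave no value. Against 10% to 15% none (0 of 13) did. There the log2 ratio turned to -0.0166 for mt-Co1, 0.0135 for mt-Co2 and 0.00997 for mt-Co3. It turned to 0.0119 for mt-Nd4, 0.00761 for mt-Cytb and 0.0508 for mt-Nd3.

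Against 10% to 15%, the sign also turned for Ier3 (-0.0434), Apoa4 (0.0679), Slc39a4 (0.14), Axin2 (-0.22), Hspa5 (0.0753), Ddit3 (-0.12) and Fabp2 (0.11). With total UMIs it turned for Esrra (0.0534), Hspa5 (0.25) and Fabp2 (0.0934), against depth-matched cells for Zg16 (0.12), Muc2 (0.88), Hspa5 (0.0797) and the 25 h interaction of Reg3g (5.94), and at 20% for Hspa5 (0.16), Ddit3 (-0.0150) and Muc2 (0.14). Without DMSO replicate 1 or 2 Hspa5 was at 0.02 and 0.10, and without 13 h replicate 1 Ddit3 was at -0.0376. Without 25 h replicate 2 the 25 h Reg3g interaction turned to 0.61. Without 25 h replicate 1 that interaction kept its sign, at -6.02. Hspa5, Ddit3 and Fabp2 did not pass in mt-rich against reference as first fitted.

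No pairing by replicate number was seen in the mt-rich sums. Deviations from the group means of same-numbered libraries of different groups had correlations of -0.0152, -0.0232 and -0.00960. With 2 libraries a group and few cells in some sums, these values cannot exclude a pairing. With the replicate block the counts within mt-rich enterocytes were 611 and 576, 503 and 417, and 96 and 60, and without the library block 2370 and 2580 genes differed from the reference. The goblet fit and its alternatives were not run. With 32 to 165 mt-rich enterocytes per library, the 25 h against DMSO fit recovered 15% of simulated log2 changes of 0.5 in genes of at least 20 CPM.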

Other observations

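Transcript length moved with the difference between mt-rich and reference enterocytes, a description chosen after values were seen. Over 10289 genes with a GENCODE transcript, in 5 equal bins of length the median log2 ratio was -0.39 in the shortest (up to 1875 bases), then -0.13, 0.06 and 0.20, and 0.33 in the longest (5204 bases or more). In the shortest bin 6.02% of genes were higher and 55.7% lower, and in the longest 43.2% and 5.00%. Genes called higher had a median length of 4614 bases and genes called lower 1997, or 2026.5 without ribosomal proteins. Spearman's rho between length and log2 ratio was 0.47 across genes, which are not independent replicates. Without ribosomal proteins, in the same bins, the medians of the shortest and longest were -0.37 and 0.33 and rho was 0.46. Against depth-matched cells the medians of the shortest and longest bins were -0.40 and 0.40. The short ribosomal and respiratory genes and long genes such as Neat1, Fcgbp and Ahnak2 lie at the ends of this range, and its part in the group differences was not tested.

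Sterol synthesis genes, a list also chosen after values were seen, had 21 of 23 lower and 1 higher in mt-rich enterocytes, with a median of -0.93, and -0.67 with total UMIs as the scale. Beside Fdps, Acat2 was at -1.71, the mevalonate enzymes Mvd and Mvk at -1.32 and -1.29, and Cyp51, the lanosterol demethylase, at -1.10. The summed level did not fall steadily over the bands. In CPM without TMM it was 3323 at 4% to 10%, 2407 at 10% to 15%, 2289 at 15% to 25% and 3112 above 25%. Above 25% it passed the reference in 13 h replicate 2 (3356 against 3211) and 25 h replicate 1 (4941 against 2456, on 4 cells). In the other libraries it was lower there.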
